A study of Mus musculus with 6 samples.

Results

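The angiopoietin-TIE pathway and a set of sprouting-associated endothelial genes were followed in CD31-sorted preparations of peritoneal endothelial cells (ECs) from mice exposed to peritoneal dialysis (PD) fluid. The genes were the ligands Angpt1 and Angpt2, the receptor Tek (TIE2), its partner Tie1, the phosphatase Ptprb, the peptide apelin (Apln) and its receptor Aplnr, and Esm1, Cd34 and Robo4. They were taken by symbol from the deposited count table, in which each of the 10 symbols had 1 row, so the set holds 10 of 22183 genes.

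RNA was sequenced from 3 saline mice and 3 PD mice, a separate library for each mouse. All were wild-type male C57BL/6J young adults that received an intraperitoneal injection every day for 6 weeks, of saline in the one group and of high-glucose Dianeal PD fluid in the other. ECs came from collagenase-digested mesentery, and the labels describe magnetic sorting on CD31, whereas the supplementary methods describe fluorescence sorting of CD31+ CD45- cells. The study asked how PD fluid alters the metabolism and vessel-forming state of these cells.

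Angiopoietin 1 activates the receptor tyrosine kinase TIE2 on ECs and keeps vessels quiescent and tight, while angiopoietin 2, which ECs store and release themselves, is a context-dependent ligand that can oppose it. TIE1 has no classical ligand of its own and acts with TIE2, and the phosphatase VE-PTP, encoded by Ptprb, removes phosphate from TIE2. In growing vessels, a leading tip cell guides the sprout, and apelin, ESM1 and CD34 are among the transcripts known to mark such cells. ROBO4 is an EC receptor of the roundabout family known for stabilizing the vessel wall.

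Library totals ran from 21973426 to 26374292 reads on genes (medians 24068579 for saline and 23786613 for PD). Levels are given for each mouse as CPM, the counts relative to a library total scaled by the TMM method, and a log2 fold change above 0 means higher in PD mice. The gene of CD31 itself, Pecam1, was at 469 ± 19.4 CPM in saline mice and 513 ± 7.85 in PD mice (SD, n = 3 mice per group; log2 fold change 0.13, SE 0.06, adjusted p = 0.0704 by the quasi-likelihood test of edgeR, adjusted by the Benjamini-Hochberg method as are all adjusted p below). Ptprc, which encodes CD45, was at 2372 ± 127 CPM in saline mice and 1472 ± 63.6 in PD mice (log2 fold change -0.69, SE 0.07, adjusted p = 7.12e-06, edgeR). Leukocyte RNA was thus present in every library, with Ptprc above Pecam1 in each of them. In bulk RNA, fewer cells of a type and less RNA per cell cannot be told apart. Of 14005 genes that passed the filter on low counts, 31.1% were called higher and 27.8% lower in PD mice at an adjusted p under 0.05, and for 34.0% all 3 PD mice were above all 3 saline mice.

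Against that background, 7 of the 10 genes were called higher after PD fluid and 0 lower. Tie1, Robo4, Cd34, Angpt2, Ptprb, Esm1 and Tek rose, in each case with every PD mouse above every saline mouse, and their increases ran from 1.45-fold for Tek to 3.14-fold for Tie1. Angpt1, Apln and Aplnr were not called and their groups overlapped. All 10 passed the filter on low counts. The median log2 fold change was 0.90 over the 10 genes and 0.02 over all genes tested. The 7 genes also passed with each mouse left out in turn.

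**Figure D1:**
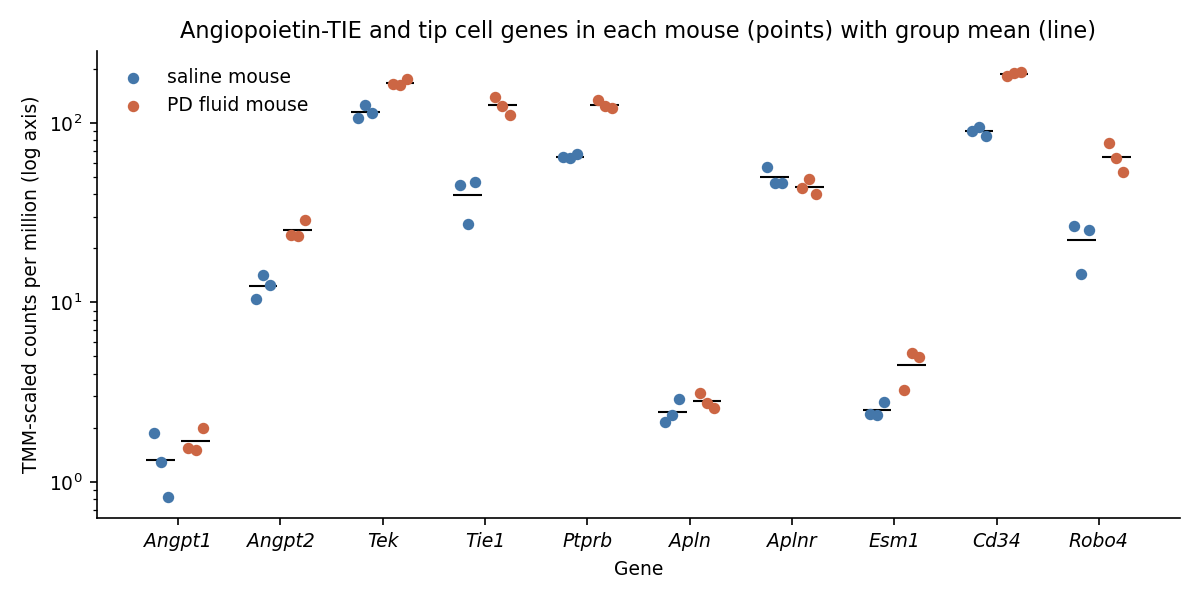
Level of each of the 10 genes in each mouse, in TMM-scaled CPM on a log axis; points are mice and lines are group means, 3 mice per group. The groups are separate for 7 genes and overlap for Angpt1, Apln and Aplnr.

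Angpt1 (ENSMUSG00000022309; GRCm38 chr15:42424723-42676977, minus strand), the TIE2 agonist made mainly by perivascular cells, was scarce. Its counts were 48, 28 and 20 in the saline mice and 42, 36 and 44 in the PD mice, or 1.87, 1.29 and 0.828 CPM against 1.54, 1.51 and 1.99 CPM. The groups overlapped, and saline mouse 1 lay above 2 of the 3 PD mice. The log2 fold change was 0.33 (SE 0.34, 95% confidence interval -0.43 to 1.08, adjusted p = 0.431, edgeR), an interval that covers both a rise and a fall.

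Angpt2 (ENSMUSG00000031465; chr8:18690263-18741562, minus strand) rose, unlike Angpt1. It was at 10.4, 14.2 and 12.5 CPM in saline mice and at 23.8, 23.4 and 28.6 CPM in PD mice, with 267 to 307 reads per saline mouse and 557 to 646 per PD mouse. The lowest PD mouse stood well above the highest saline mouse. The log2 fold change was 1.03 (SE 0.14, adjusted p = 8.4e-05, edgeR), or 2.04-fold.

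Both receptors rose, Tie1 by more than Tek. Tek (ENSMUSG00000006386; chr4:94739289-94874976, plus strand), the signalling receptor for both angiopoietins, was at 107, 125 and 114 CPM in saline mice and at 164, 163 and 174 CPM in PD mice. The PD mice were close together and all above the saline mice, with a log2 fold change of 0.53 (SE 0.07, adjusted p = 1.07e-04, edgeR). Tie1 (ENSMUSG00000033191; chr4:118471191-118490061, minus strand), the partner receptor, was at 45.3, 27.2 and 46.7 CPM in saline mice and at 140, 124 and 110 CPM in PD mice. Saline mouse 2 was far below the other saline mice, and even the lowest PD mouse was far above the highest saline mouse. The log2 fold change of Tie1 was 1.65 (SE 0.17, adjusted p = 1.41e-05, edgeR) and 1.44 without saline mouse 2.

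Ptprb (ENSMUSG00000020154; chr10:116275523-116389535, plus strand), whose product dephosphorylates TIE2, had the narrowest spread of the pathway genes among saline mice. It was at 64.1, 63.4 and 66.7 CPM in saline mice and at 134, 124 and 121 CPM in PD mice. The groups were far apart, with a log2 fold change of 0.96 (SE 0.07, adjusted p = 6.79e-07, edgeR).

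Neither gene of the apelin pair was called. Apln (ENSMUSG00000037010; chrX:48025146-48034853, minus strand), the peptide ligand, had 51 to 70 reads per saline mouse and 57 to 85 per PD mouse. At 2.15, 2.35 and 2.90 CPM against 3.13, 2.77 and 2.58 CPM, the groups overlapped, with a log2 fold change of 0.20 (SE 0.23, interval -0.30 to 0.70, adjusted p = 0.472, edgeR). Its G protein-coupled receptor Aplnr (ENSMUSG00000044338; chr2:85136225-85139923, plus strand) was at 56.4, 46.3 and 46.4 CPM in saline mice and at 43.4, 48.4 and 40.3 CPM in PD mice. Saline mouse 1 alone stood above all PD mice, and the log2 fold change was -0.18 (SE 0.10, interval -0.40 to 0.05, adjusted p = 0.160, edgeR).

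Esm1 (ENSMUSG00000042379; chr13:113209659-113218098, plus strand), a secreted proteoglycan enriched in tip cells, rose from a low level. It had 61, 51 and 67 reads in the saline mice and 88, 124 and 110 in the PD mice, or 2.38, 2.35 and 2.77 CPM against 3.24, 5.20 and 4.98 CPM. PD mouse 1 was only slightly above the saline range, and the other PD mice were clearly above it. The log2 fold change was 0.83 (SE 0.23, adjusted p = 0.0101, edgeR), and with PD mouse 2 left out the adjusted p was 0.0485, close to the threshold (edgeR).

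Cd34 (ENSMUSG00000016494; chr1:194938819-194961279, plus strand), a sialomucin of the luminal EC surface that is also made by fibroblasts and progenitor cells, varied little between mice of a group. It was at 89.6, 94.3 and 84.9 CPM in saline mice and at 182, 190 and 192 CPM in PD mice. The difference was many times the spread within either group (log2 fold change 1.07, SE 0.06, adjusted p = 1.96e-07, edgeR). Robo4 (ENSMUSG00000032125; chr9:37401897-37415115, plus strand) was at 26.8, 14.4 and 25.2 CPM in saline mice and at 77.5, 63.3 and 53.4 CPM in PD mice. As for Tie1, saline mouse 2 was the lowest, PD mouse 1 the highest and PD mouse 3 the lowest of its group. The log2 fold change of Robo4 was 1.55 (SE 0.20, adjusted p = 8.01e-05, edgeR) and 1.32 without saline mouse 2.

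Tie1 and Robo4 also shared a base composition. Their transcripts held 57.6% and 54.9% G and C, both in the highest quartile of genes, which began at 54.3%, while the other 8 genes held 39.3% to 52.1%. Genes of that quartile deviated by a median of -0.122 on the log2 scale from the group mean in saline mouse 2, against 0.0481 and 0.0801 in the other saline mice. With each library's trend with GC content taken out, the log2 fold changes were 1.33 for Tie1 and 1.34 for Robo4, both still called. Under that correction Aplnr, at -0.26, was called lower as well (adjusted p = 0.0360, edgeR).

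The size of each change depended on what the libraries were scaled to. A second scaling set the geometric mean of 12 endothelial markers equal in all libraries (Pecam1, Cdh5, Kdr, Flt1, Eng, Erg, Egfl7, Cldn5, Emcn, Mmrn2, Clec14a and Esam). It asks whether a gene changed relative to these transcripts, and it moved the median of all genes tested to -0.88, with 9.06% called higher and 70.1% lower. On this scale Tie1 (log2 fold change 0.75, interval 0.40 to 1.09, adjusted p = 7.39e-04, edgeR) and Robo4 (0.64, interval 0.24 to 1.05, adjusted p = 0.00675, edgeR) remained higher in PD mice. Here the GC trend was not taken out and saline mouse 2 was included. The 12 markers themselves ran from -0.77 (Pecam1) to 0.56 (Flt1), with 3 called higher, 3 lower and 6 not called. Tie1 and Robo4 lay above that range. Under TMM scaling with the GC trend taken out, they did not lie above Flt1 (1.39 for Flt1, 1.33 for Tie1, 1.34 for Robo4). Nor did they under TMM scaling without saline mouse 2 (1.46 for Flt1, 1.44 for Tie1, 1.32 for Robo4).

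Another group of genes was lower relative to the endothelial markers. Aplnr fell by 1.08 on the log2 scale (adjusted p = 3.85e-07, edgeR), to 0.474 of its saline level. Apln fell by 0.70 (interval -1.21 to -0.20, adjusted p = 0.0141, edgeR), and Tek fell by 0.37 (interval -0.55 to -0.19, adjusted p = 0.00103, edgeR). Tek was thus higher per read but lower relative to the mean of the markers. Apln and Tek lay within the markers' own range, and Aplnr lay below it. Pecam1 alone set the lower end of that range. The next lowest marker, Egfl7, was at -0.28, above both Tek and Apln. The other 5 were not called on this scale. Among them, the intervals were -0.18 to 0.43 for Angpt2, -0.10 to 0.22 for Ptprb, 0.01 to 0.33 for Cd34 (adjusted p = 0.0523, edgeR) and -0.59 to 0.45 for Esm1. Angpt1 had a value of -0.57 (adjusted p = 0.146, edgeR).

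**Figure D2:**
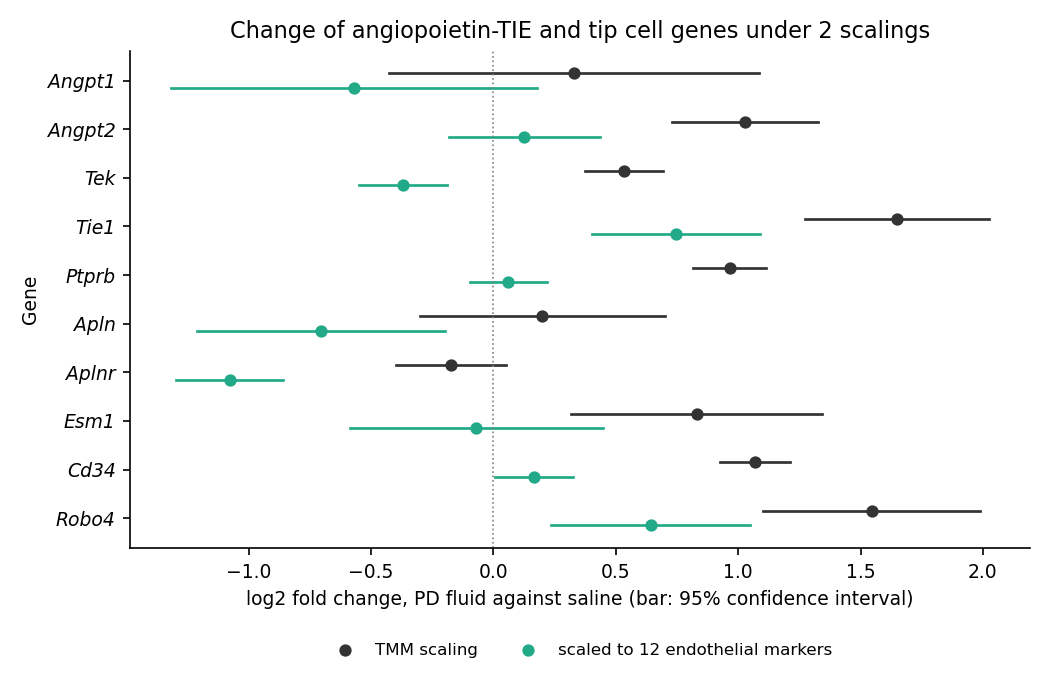
Log2 fold change of each of the 10 genes, PD mice against saline mice, with its 95% confidence interval, under TMM scaling and after scaling to 12 endothelial markers. Under TMM scaling 7 intervals of called genes lie above 0, and after marker scaling only Tie1 and Robo4 were called higher while Tek, Apln and Aplnr were called lower.

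Ratios between genes within a mouse were compared on CPM with 0.5 added, an amount that matters for scarce genes such as Angpt1 and Apln and little for Tie1, Tek and Ptprb. The log2 ratio of Tie1 to Tek was -1.23, -2.18 and -1.28 in saline mice and -0.23, -0.39 and -0.66 in PD mice. Every PD mouse was above every saline mouse, a difference of 1.14 in group means, or 0.83 without saline mouse 2. The GC trend was not taken out of this ratio. On the authors' FPKM values, which are per transcript length, Tie1 stood at 0.385 ± 0.127 of Tek in saline mice and 0.820 ± 0.123 in PD mice (SD, n = 3).

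The ratio of Ptprb to Tek rose less, from -0.83 ± 0.13 to -0.40 ± 0.12 on the log2 scale, again with no overlap between groups. For the 2 ligands, the log2 ratio of Angpt2 to Angpt1 was 2.2, 3.03 and 3.30 in saline mice and 3.57, 3.57 and 3.54 in PD mice. The gap between the groups rested on the added 0.5 CPM. With 0.05 CPM added the groups overlapped, and on FPKM the ratio of saline mouse 3 (18.1) was above that of PD mouse 3 (17.2). The Angpt1 counts under this ratio were 48 or fewer in every mouse. The ratio of Apln to Aplnr overlapped between groups. With 3 mice against 3, a two-sided exact permutation test can give no p under 0.1. The exact permutation test gave p = 0.1 for the first 3 ratios (0.133 adjusted over the 4 ratios, Benjamini-Hochberg) and p = 0.2 for Apln to Aplnr (0.2 adjusted). For Angpt2 to Angpt1 the exact permutation p was 0.2 with 0.05 CPM added.

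**Figure D3:**
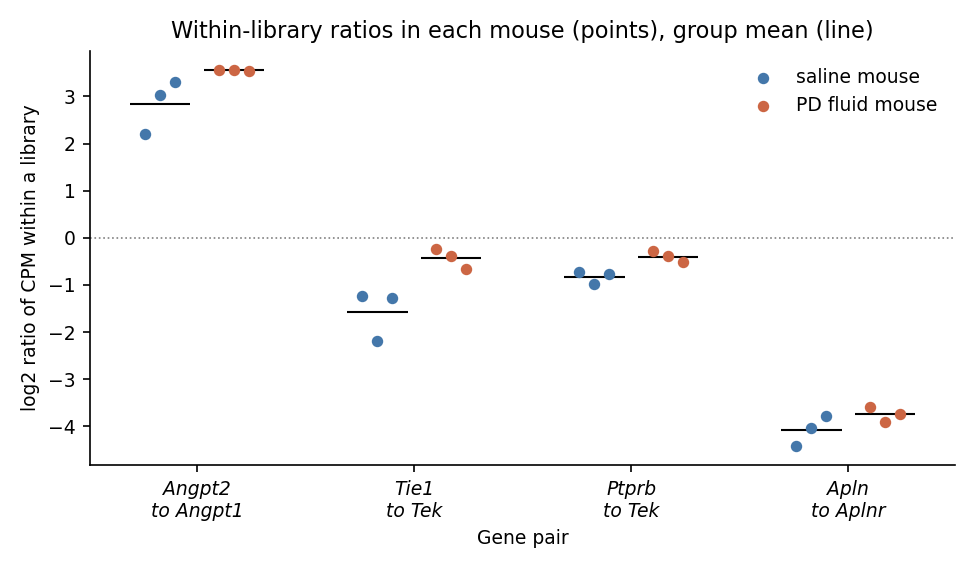
Log2 ratio of CPM between pairs of genes in each mouse; points are mice and lines are group means, 3 mice per group. Tie1 to Tek separates the groups by 1.14 (0.83 without saline mouse 2), while Apln to Aplnr overlaps.

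Per transcript length, Cd34 and Tek were the most abundant of the 10 in both groups. In saline mice Cd34 was at 36.0 ± 1.62 FPKM and Tek at 25.5 ± 1.84, followed by Aplnr at 13.4 ± 1.60, Tie1 at 9.68 ± 2.71, Ptprb at 7.06 ± 0.343, Robo4 at 5.90 ± 1.84 and Angpt2 at 3.46 ± 0.505 FPKM (SD, n = 3). Esm1 (1.19 ± 0.120), Apln (0.781 ± 0.127) and Angpt1 (0.311 ± 0.122) were the lowest. The saline ranges of Tie1 and Ptprb, of Ptprb and Robo4, and of Robo4 and Angpt2 overlapped, so these neighbours were not separated.

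In PD mice the order was Cd34 (76.2 ± 0.787 FPKM), Tek (37.4 ± 0.748), Tie1 (30.6 ± 4.44), Robo4 (17.4 ± 3.70), Ptprb (14.6 ± 1.51), Aplnr (11.9 ± 1.24) and Angpt2 (7.10 ± 0.661). Esm1, Apln and Angpt1 remained the lowest, at 2.13 ± 0.476, 0.902 ± 0.112 and 0.395 ± 0.0542 FPKM. Aplnr thus moved from the third place to the sixth while Tie1 and Robo4 moved up, and only Robo4 and Ptprb overlapped among neighbours.

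**Figure D4:**
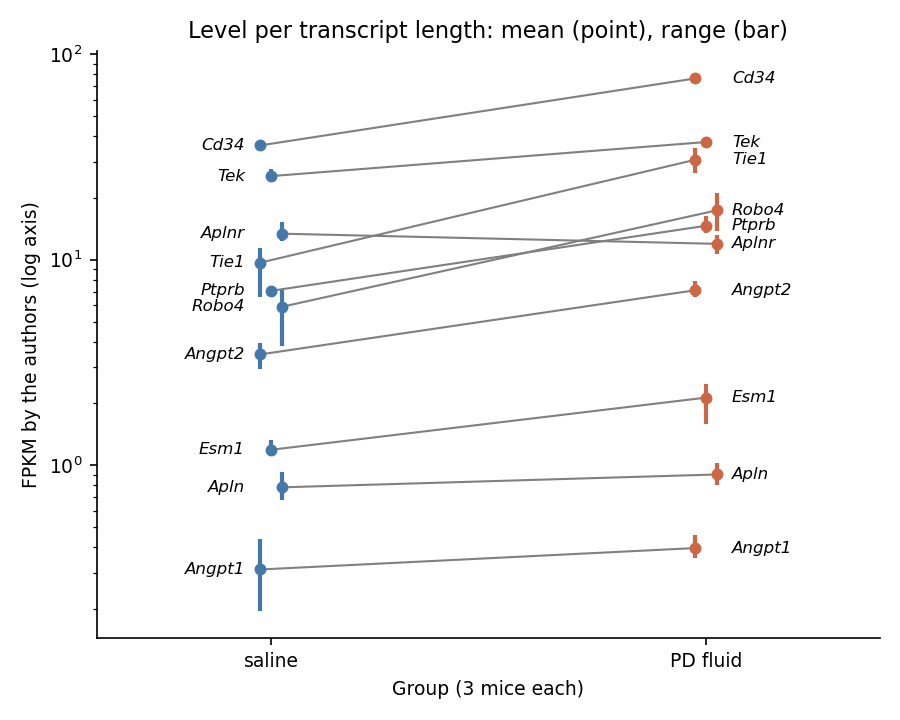
FPKM of each of the 10 genes as computed by the authors, on a log axis; points are group means and bars run from the lowest to the highest of 3 mice. Tie1 and Robo4 have the steepest lines, and Aplnr is the one gene whose line descends.

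The promoters of 4 of the genes are shown, Tek, Cd34, Esm1 and Apln, whose windows lay wholly or almost wholly before the GENCODE gene start. ETS factors are central regulators of EC genes and bind a GGAA core, FOXO1 of the forkhead family controls Angpt2 and other EC genes, and hypoxia-inducible factors bind ACGTG. RefSeq promoters on GRCm38.p6, the 250 bases before the RefSeq start, were at hand for 6 of the 10 genes. Capitals mark GGAAG or its reverse complement CTTCC, and TAAACA or its reverse complement TGTTTA, read 5′ to 3′ on the strand of the gene.
Tek, chr4:94739039-94739288, plus strand: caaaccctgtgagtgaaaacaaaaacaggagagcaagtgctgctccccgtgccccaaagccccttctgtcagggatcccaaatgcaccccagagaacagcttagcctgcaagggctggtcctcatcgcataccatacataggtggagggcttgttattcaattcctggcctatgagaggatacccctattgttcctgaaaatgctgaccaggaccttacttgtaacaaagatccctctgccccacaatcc
Cd34, chr1:194938571-194938818, plus strand: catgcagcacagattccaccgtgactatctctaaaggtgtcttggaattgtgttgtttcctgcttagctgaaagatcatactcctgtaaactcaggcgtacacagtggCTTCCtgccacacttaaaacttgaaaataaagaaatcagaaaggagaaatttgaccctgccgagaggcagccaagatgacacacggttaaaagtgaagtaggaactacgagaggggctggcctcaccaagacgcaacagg
Esm1, chr13:113209409-113209658, plus strand: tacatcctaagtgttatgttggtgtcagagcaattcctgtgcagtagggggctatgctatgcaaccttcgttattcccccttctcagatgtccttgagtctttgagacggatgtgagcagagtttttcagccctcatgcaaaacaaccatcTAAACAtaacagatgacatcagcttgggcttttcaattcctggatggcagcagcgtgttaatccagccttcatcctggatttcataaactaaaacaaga
Apln, chrX:48034854-48035103, minus strand: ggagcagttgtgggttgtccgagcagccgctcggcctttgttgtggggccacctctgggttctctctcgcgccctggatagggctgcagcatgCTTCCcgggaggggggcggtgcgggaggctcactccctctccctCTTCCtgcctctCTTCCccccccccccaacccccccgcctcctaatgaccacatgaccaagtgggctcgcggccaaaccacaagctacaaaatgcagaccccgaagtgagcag

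GGAAG, on either strand, occurred 6 times in the Tie1 window, 3 times for Apln, 2 times for Robo4 and 1 time for Cd34, and it was in 64.1% of 32851 promoter windows of the same length. By the GENCODE gene starts, 38 of the 250 bases of the Tie1 window and 175 of those of Robo4 lay before the gene, and these held 2 and 0 of the matches. Tek and Esm1 held none. TAAACA occurred 1 time, in Esm1, against 12.03% of all windows. ACGTG (16.6% of windows) and the joined forkhead and ETS letters AACAGGAA (2.25%), whose last letters are the GGAA core, were in none of the 6. GGAAG is longer than the GGAA core, and cores followed by another base were not counted. The printed Tek, Cd34 and Esm1 windows hold such cores. Whether any of these matches bears on the changes was not tested.

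Counts of called genes in the wider TIE pathway were near those of all genes. Of 19 other genes listed for it, all tested, 7 were higher, 4 lower and 8 not called, where 31.1% of all genes tested were higher and 27.8% lower. The median log2 fold change was 0.22 against 0.02 over all genes. The higher ones were Angpt4, Svep1, Dok2, Grb14, Pik3r1, Pik3r2 and Akt1, and Grb2, Nras and Pik3ca were among the lower ones. The count of lower genes was 2 without saline mouse 1, without PD mouse 1, without PD mouse 2 or with the GC trend taken out. Svep1 and Angpt4, an extracellular protein and another angiopoietin, were near the limit of detection, with 2 to 10 and 5 to 8 reads per saline mouse. Angpt4, Pik3r2 and Pik3ca were not called without saline mouse 2 (adjusted p = 0.0827, 0.0983 and 0.105, edgeR). They were not called with the GC trend taken out either (adjusted p = 0.0717, 0.764 and 0.155, edgeR), where Pik3r2 was at -0.04. Scaled to the endothelial markers, 1 was higher (Svep1) and 14 lower, beside the 70.1% of all genes that were lower on that scale.

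Dok2, an adaptor that binds phosphorylated TIE2, was at 113 ± 12.2 CPM in saline mice and 156 ± 14.3 in PD mice (log2 fold change 0.46, SE 0.09, adjusted p = 0.00138, edgeR), and it was not called with the GC trend taken out (adjusted p = 0.214). Akt1, the survival kinase downstream of TIE2, was at 112 ± 26.3 against 185 ± 25.9 CPM (0.73, SE 0.15, adjusted p = 0.00203, edgeR), and its log2 fold change was 0.31 with the GC trend taken out (adjusted p = 0.00642). Grb14, another adaptor of TIE2, had only 8 to 16 reads per saline mouse and 32 to 64 per PD mouse (log2 fold change 1.76, SE 0.37, adjusted p = 0.00213, edgeR). Grb2, the adaptor that links receptors to RAS, was at 263 ± 17.2 against 214 ± 1.82 CPM (-0.29, SE 0.06, adjusted p = 0.0024, edgeR). Nras, a RAS GTPase, was at 92.7 ± 6.61 against 67.0 ± 11.5 CPM (-0.47, SE 0.11, adjusted p = 0.00394, edgeR), and Pik3ca, a catalytic subunit of PI3 kinase, at 16.2 ± 1.70 against 12.8 ± 0.622 CPM (-0.33, SE 0.12, adjusted p = 0.0317, edgeR). Grb2, Nras and Pik3ca are used by many receptors in most cell types. The cell source of their RNA, and of that of Dok2, Akt1 and Grb14, was not tested.

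Of 18 further genes of a tip cell panel, all tested, 16 were higher, 1 was lower and 1, Cxcr4, was not called (log2 fold change 0.06, adjusted p = 0.613, edgeR). Of all genes tested, 31.1% were higher and 27.8% lower. The median of the panel was 1.14. With the GC trend taken out, 15 were higher and 1 lower, with a median of 0.88, where the median of all genes was -0.04. Kdr, the main VEGF receptor of ECs and also 1 of the 12 endothelial markers, was at 82.8 ± 0.933 CPM in saline mice and 164 ± 2.16 in PD mice (log2 fold change 0.98, SE 0.06, adjusted p = 1.86e-07, edgeR). Adm, the vasodilator peptide adrenomedullin, was at 10.2 ± 1.02 against 24.1 ± 0.959 CPM (1.25, SE 0.11, adjusted p = 5.04e-06, edgeR). Dll4, the Notch ligand of tip cells, was at 8.68 ± 0.494 against 22.8 ± 2.94 CPM (1.39, SE 0.13, adjusted p = 5.62e-06, edgeR).

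The lower gene was Plaur, the urokinase receptor, which leukocytes also make, at 246 ± 4.59 against 203 ± 28.8 CPM (-0.28, SE 0.09, adjusted p = 0.0202, edgeR). It was not called without saline mouse 1, without PD mouse 1 or without PD mouse 2. Relative to the endothelial markers, 6 of the panel were higher and 4 lower, with a median of 0.23, where 9.06% of all genes were higher and 70.1% lower, with a median of -0.88. The higher ones were Lamb1 (1.01), Col4a1 (0.69), Nid2 (0.64), Dll4 (0.49, adjusted p = 0.0033, edgeR), Mcam (0.45) and Adm (0.34, adjusted p = 0.0183, edgeR). Kdr was at 0.08 (adjusted p = 0.280, edgeR). Which cells made the panel transcripts was not tested.

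Of 7 relatives of the apelin and SLIT-ROBO genes, 3 had enough reads to be tested and 2 were higher. Slit3, a secreted guidance ligand, had 38, 22 and 49 reads in saline mice and 218, 158 and 150 in PD mice (log2 fold change 2.23, SE 0.24, adjusted p = 1.99e-05, edgeR). Slit2 had 2, 2 and 3 reads against 50, 25 and 32, and with its saline libraries at the floor of 3 counts no fold is given. Robo2, with 1, 12 and 2 reads against 14, 14 and 4, was not called (log2 fold change 1.00, adjusted p = 0.306, edgeR), but it was called higher without saline mouse 2 (2.75, adjusted p = 0.0248, edgeR). Robo1, Robo3 and Slit1 were too low to test, and Apela, the second ligand of APLNR, had 0 reads in all 6 libraries.

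**Figure D5:**
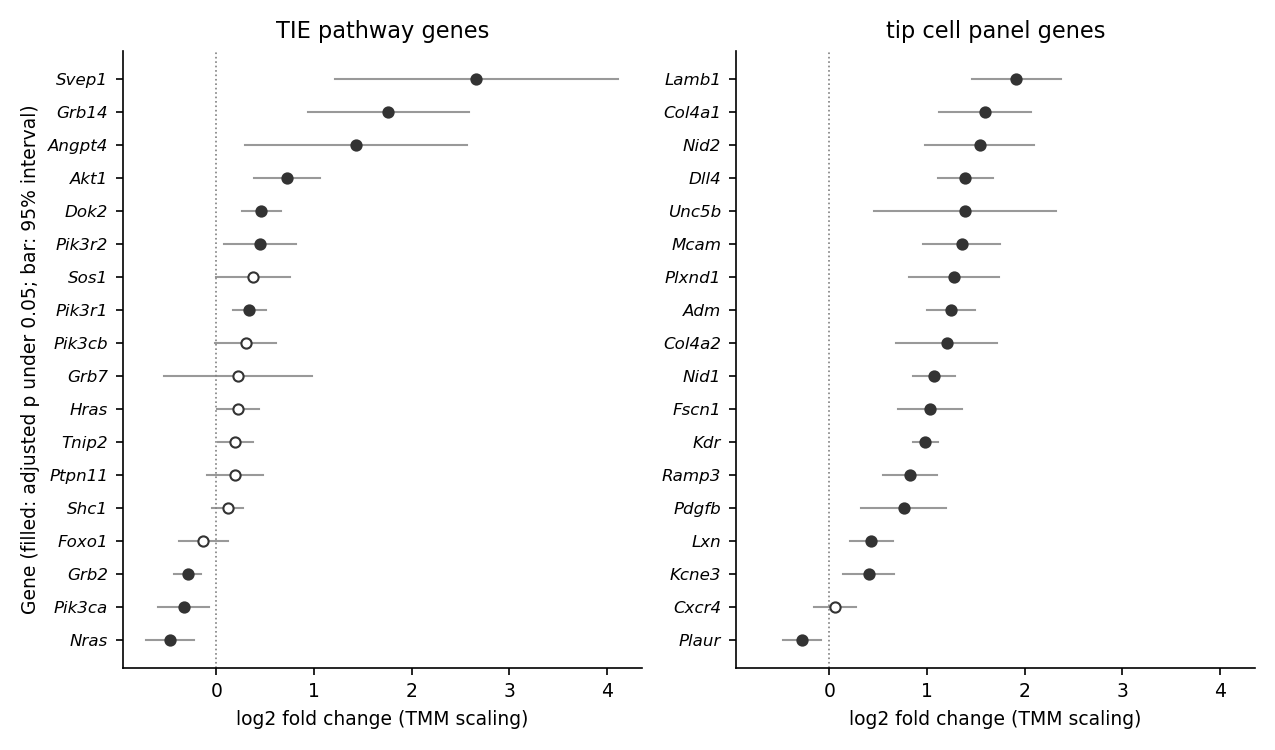
Log2 fold change, PD mice against saline mice under TMM scaling, of 18 of the 19 TIE pathway genes (left) and the 18 tip cell panel genes (right); points are estimates from 3 mice per group, filled where the adjusted p was under 0.05, and bars are 95% confidence intervals. The estimates of the tip cell panel lie above 0 except for Plaur, with a median of 1.14, and the interval of Cxcr4 includes 0. The TIE pathway genes lie on both sides, with a median of 0.22 over the 19.

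Markers of ECs and of other cells differed between the groups beside these genes. The summed level of the 12 endothelial markers was 1167 to 1186 CPM in saline mice and 1884 to 1949 in PD mice, with 11 of 12 called higher and a median log2 fold change of 0.96. Mural cells are a source of Angpt1, and 8 of 10 mural markers were higher. The 10 summed to 296 to 318 CPM in saline mice and 458 to 503 in PD mice. Pdgfrb had a log2 fold change of 1.09 (SE 0.18). Of the sum, 61.9% came from Rgs5, with a log2 fold change of 0.26. Kcnj8 (-0.15) and Abcc9 (-0.25) were not called. Lymphatic ECs express Tie1 and Tek, and all 6 of their markers rose, from 224-245 to 1027-1169 CPM in sum. Prox1, the lymphatic identity factor, had a log2 fold change of 1.70 (SE 0.14).

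Fibroblasts can express Cd34, and all 8 of their markers rose, with a sum of 84.7 to 87.8 against 750 to 821 CPM and a log2 fold change of 2.35 for Pdgfra (SE 0.16). Mesothelial markers (6 of 6 higher) went from 13.5-17.2 to 147-172 CPM, with 3.06 for Upk3b (log2 fold change, SE 0.13). Macrophage markers (6 of 6) went from 2100-2232 to 8463-9096 CPM and mast cell markers (5 of 6) from 164-179 to 238-266 CPM. B cell markers were lower in 5 of 5 cases, 5010 to 5302 against 2357 to 2389 CPM. Pancreatic acinar markers rose from 1.84-4.38 to 3594-3856 CPM (6 of 6). Megakaryocyte and platelet markers summed to 36.4-38.5 against 98.7-105 CPM, 84.4% of it from Pf4, which macrophages also make and which was the 1 of 5 tested that was higher (log2 fold change 1.70, SE 0.08). No listed marker was at 0 in all libraries, and each of the 10 sums gave p = 0.1 in the two-sided exact permutation test, the smallest that 3 against 3 allow. The part of these other cells in the changes of the 10 genes was not tested.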

How the data were processed

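RNA was sequenced from CD31-sorted cells of the peritoneum in 6 mice, 3 given saline and 3 given PD fluid. The submitters' processing notes name fastp 0.18.0, Bowtie2 2.2.8, HISAT2, StringTie and RSEM; the genome build and annotation are not given in the sources used here, and positions and GC content come from GENCODE M21 (GRCm38). The authors deposited a read count for each gene and mouse, without normalization, and FPKM values that the authors computed per transcript length. Their group means, log2 ratio, p-value and FDR columns were not used. 0 columns of sample values were left unmatched.

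Counts were filtered with filterByExpr, scaled by TMM and tested with the quasi-likelihood test of edgeR 4.0.16 in R 4.3.3, with no covariate and Benjamini-Hochberg adjustment over 14005 genes at 0.05. The FPKM values were used only to compare levels between genes. Depth limits Angpt1, Apln and Esm1, with 20 to 124 reads per mouse. Alternatives were DESeq2 1.42.0, limma-voom (limma 3.58.1), no filter on low counts, scaling to 12 endothelial markers, the replicate number as a block, and leaving out each mouse. The genes, the lists and the alternatives were chosen with earlier results of these data known. The genes named are the 10 genes, up to 3 per direction with the lowest p in each pathway list, and defining cell markers. Angpt4, Svep1, Pik3r1, Pik3r2, Cxcr4, Lamb1, Col4a1, Nid2 and Mcam were named after their values were seen. So were the untested or uncalled relatives of apelin and SLIT-ROBO, and Flt1 and Egfl7 from the endothelial markers. The same holds for Rgs5, Kcnj8 and Abcc9 from the mural markers. The values of 1 TIE pathway gene, which is included in the counts, are not reported here.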

Additional observations from a re-analysis of the deposited data

How the results depend on the processing

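DESeq2, limma-voom and the fit without the filter on low counts gave the same calls for the 10 genes, 7 higher and 0 lower. Scaling to the endothelial markers gave 1269 higher and 9819 lower genes over all, 2 higher and 3 lower among the 10, 1 and 14 in the TIE pathway list, and 6 and 4 in the tip cell panel. Under it Angpt1 (-0.57), Tek (-0.37), Apln (-0.70) and Esm1 (-0.0694) turned direction, Angpt2 (0.13), Ptprb (0.06) and Cd34 (0.17) were no longer called, and Aplnr (-1.08) was called lower. This scaling shifts all genes by nearly the same amount, and which scale is nearer to the RNA per cell was not tested. The GC correction, chosen after seeing the data, gave 1 lower gene among the 10 (Aplnr, -0.26) and 2 lower in the TIE pathway list. In the tip cell panel it gave 15 higher and 1 lower. With each mouse left out in turn, the TIE pathway list had 2 to 3 lower genes and the tip cell panel 0 to 1. The replicate numbers did not pair the mice, with correlations of 0.105, 0.0406 and -0.173 between same-numbered samples, and the fit with the replicate number as a block gave 4242 higher and 3667 lower genes and 7 and 0 among the 10. With 0.05 in place of 0.5 CPM added, the difference in the log2 ratio of Angpt2 to Angpt1 was 0.64 with overlapping groups (exact permutation p = 0.2). With 3 mice per group, no ratio or marker sum could reach 0.05 in the exact permutation test.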
